A study of Mus musculus with 45 samples.

Results

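The 9 genes described here encode the core enzymes of the methionine cycle and of folate one-carbon metabolism: Mat2a, Mat2b, Ahcy, Mtr, Mthfd1, Mthfd2, Mthfd1l, Shmt1 and Shmt2. They were chosen by name, and all 9 were found among the 29307 genes of the count table and passed the filter on low counts. Their mRNA was measured by RNA sequencing in bone marrow-derived macrophages of C57BL/6N mice aged 6 to 10 weeks, which carried Famin p.254I, p.254V or p.284R. FAMIN, whose gene the files name Lacc1, is an enzyme of purine nucleoside metabolism. The p.254I mice served as the reference, p.254V is a common human variant and p.284R is linked to inherited inflammatory disease. Mice were bred from heterozygous parents, and littermates matched for age and gender were used. Marrow cells of all genotypes were grown for 6 days with M-CSF. For 24 h after that they received no stimulus (M0), IFN-γ at 50 ng/mL together with LPS at 20 ng/mL (M1), or IL-4 at 20 ng/mL (M2). Each of the 9 groups held 5 libraries. A genotype and a number together name 1 mouse in the labels, so the 45 libraries were taken as 3 cultures from each of 15 mice. The variants change the protein, so transcript counts do not check the genotype labels.

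The methionine cycle makes S-adenosylmethionine, the methyl donor of most methyltransferases, and recycles what remains of it. MAT2A is the catalytic subunit that joins methionine to ATP, MAT2B its regulatory subunit, AHCY splits S-adenosylhomocysteine into homocysteine and adenosine, and MTR returns homocysteine to methionine with a methyl group from folate. Folate receives its carbon mainly from serine through SHMT1 in the cytosol and SHMT2 in mitochondria. MTHFD2 and MTHFD1L turn the mitochondrial folate-bound carbon into formate, which MTHFD1 attaches to folate again in the cytosol for purine and thymidylate synthesis.

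The windows around the annotated start sites are shown for Mthfd2, which had the largest difference between M1 and M0, for Mat2a, Ahcy and Mthfd1, which rose together in M2, and for Shmt2, whose window held the match described next. Sequences are from RefSeq on GRCm38.p6, each from 250 bases before to 30 bases after the start, on the strand of the gene, with the motif match in capitals. The window of Mthfd2 is chr6:83317575-83317854 on the minus strand, inside the longer gene model of GENCODE that is given further on. Those of Mat2a and Ahcy are chr6:72439527-72439806 and chr2:155074468-155074747, also on the minus strand. That of Mthfd1 is chr12:76254982-76255261 on the plus strand, and that of Shmt2 is chr10:127522415-127522694 on the minus strand.
Mthfd2: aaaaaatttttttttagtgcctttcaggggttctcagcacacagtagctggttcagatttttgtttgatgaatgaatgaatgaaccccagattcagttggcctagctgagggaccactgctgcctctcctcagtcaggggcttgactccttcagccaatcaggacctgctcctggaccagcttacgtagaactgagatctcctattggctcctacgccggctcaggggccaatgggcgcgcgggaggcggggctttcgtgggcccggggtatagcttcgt
Mat2a: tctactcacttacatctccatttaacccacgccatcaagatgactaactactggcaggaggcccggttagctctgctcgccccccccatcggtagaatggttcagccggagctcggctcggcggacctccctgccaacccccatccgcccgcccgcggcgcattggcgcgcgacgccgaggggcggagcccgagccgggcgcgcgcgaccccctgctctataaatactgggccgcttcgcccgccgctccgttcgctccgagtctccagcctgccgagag
Ahcy: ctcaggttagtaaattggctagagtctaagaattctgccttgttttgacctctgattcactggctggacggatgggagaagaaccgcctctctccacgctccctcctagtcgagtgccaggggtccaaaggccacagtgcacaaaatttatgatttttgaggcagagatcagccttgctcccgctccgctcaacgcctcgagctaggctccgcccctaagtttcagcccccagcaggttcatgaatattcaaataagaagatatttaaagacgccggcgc
Mthfd1: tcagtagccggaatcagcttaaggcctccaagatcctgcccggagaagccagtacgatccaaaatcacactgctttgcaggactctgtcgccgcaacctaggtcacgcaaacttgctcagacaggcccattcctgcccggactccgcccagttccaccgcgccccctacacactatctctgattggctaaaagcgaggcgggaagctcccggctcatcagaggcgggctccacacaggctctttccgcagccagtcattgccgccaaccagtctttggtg
Shmt2: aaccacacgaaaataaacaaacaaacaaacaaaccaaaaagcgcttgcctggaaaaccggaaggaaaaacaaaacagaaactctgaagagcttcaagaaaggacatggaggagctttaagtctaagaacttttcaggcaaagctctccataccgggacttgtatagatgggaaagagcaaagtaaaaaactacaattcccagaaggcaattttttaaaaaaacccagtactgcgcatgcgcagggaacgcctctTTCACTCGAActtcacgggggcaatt

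Windows of 300 bases were found for 9 of the 9 genes and searched on both strands for 4 motifs. The letters were CACGTG (E-box), TGATGCAA (a composite element bound by ATF4), and TTTGGCGC or TTTCCCGC (E2F), together with the STAT6 motif, TTC and GAA set 4 bases apart. Shmt2 alone of the 9 genes had a match, TTCACTCGAA for STAT6 from base 4 to 13, counted with the start as 0. Of 32851 windows of all genes, 7.0% held the STAT6 letters, 7.2% the E-box, 1.6% an E2F match and 0.9% the ATF4 element. A match of letters is not a mapped binding site.

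Levels compared between genes are given in RPKM, which divides reads by library size and by the length of the merged exons, and levels of 1 gene in CPM, which divides them by library size after scaling by TMM. In M0, Mat2a was the most abundant of the 9 at 31.8 ± 5.65 RPKM (SD, n = 15), followed by Mat2b at 16.8 ± 0.943 RPKM. Shmt2 at 8.23 ± 1.35 RPKM, Mthfd2 at 7.22 ± 3.24 RPKM and Mthfd1 at 5.67 ± 0.88 RPKM formed a middle group. Within that group, Shmt2 and Mthfd2 did not differ beyond their spread, and nor did Mthfd2 and Mthfd1. Mtr at 3.9 ± 0.633 RPKM and Mthfd1l at 3.33 ± 0.88 RPKM did not differ beyond their spread either. Ahcy was at 0.975 ± 0.152 RPKM and Shmt1 at 0.64 ± 0.168 RPKM, the 2 lowest values.

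In M1 the order changed at Mthfd2, which stood second per merged exon length at 24.8 ± 5.78 RPKM, within its spread of Mat2a (28.6 ± 2.2 RPKM) and of Mat2b (19.9 ± 0.888 RPKM). The order among these 3 genes in M1 depends on the length used: per length of the longest annotated transcript the means were 41.4 RPKM for Mthfd2, 40.4 for Mat2b and 37.9 for Mat2a. In M2, Mat2a stood at 47.4 ± 5.62 RPKM, whereas Mthfd2 (9.29 ± 2.02 RPKM), Shmt2 (8.98 ± 0.849 RPKM) and Mthfd1 (8.45 ± 1.45 RPKM) could not be ordered beyond their spread. The low level of Ahcy is uncertain, since 68.7% of the 50-base windows of its transcripts also occur in transcripts of Gm4737, Gm4913, Gm5638 or Gm9826, and how reads with several matches were counted is not given in the sources used here. The same was true of 14.2% of the windows of Mat2a and of 3.4% of those of Shmt1, and of 0.0% for Mat2b, Mtr, Mthfd1, Mthfd2 and Mthfd1l. Shmt1 also overlaps Smcr8 on the opposite strand, which was at 182 CPM in M0 where Shmt1 was at 2.49 CPM. The libraries were stranded, but whether counting used the strand is not given in the sources used here. The plot of levels per length shows the 9 genes in this order.

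**Figure D1:**
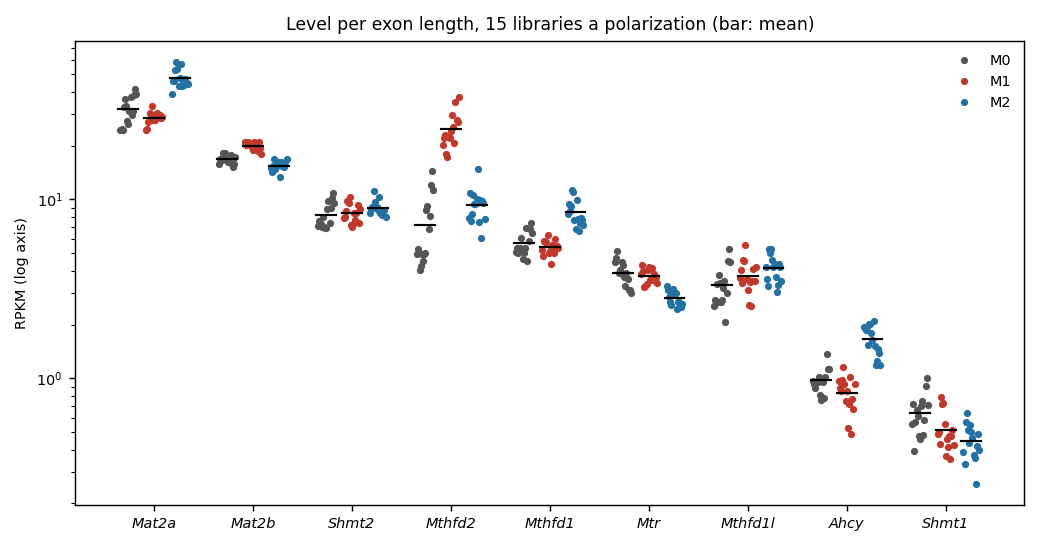
Level of the 9 genes per merged exon length, RPKM on a log axis, with a point for each of 15 libraries of M0, M1 and M2 and a bar at the mean. Per merged exon length Mat2a had the highest mean in each polarization, though not in M1 per longest transcript (37.9 RPKM against 41.4 for Mthfd2), and Mthfd2 moved from 7.22 RPKM in M0 to 24.8 RPKM in M1.

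The genes lie on 6 chromosomes of GRCm38, the assembly also called mm10. Mat2a is at chr6:72432799-72439558 and Mthfd2 at chr6:83305691-83325908, both on the minus strand. Mat2b is at chr11:40679314-40695203 and Shmt1 at chr11:60788104-60811718, both on the minus strand. Shmt2 is at chr10:127517123-127522444 on the minus strand and Mthfd1l at chr10:3973118-4167081 on the plus strand. Ahcy is at chr2:155059310-155074497 and Mtr at chr13:12182712-12258113, both on the minus strand, and Mthfd1 is at chr12:76255298-76319803 on the plus strand. The counts are per gene over its exons.

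Library totals ranged from 17239009 to 43740283 reads with a median of 27553642, so 1 CPM stood for 17.2 to 43.7 reads. Ahcy had between 35 and 184 reads a library and Shmt1 between 27 and 170, whereas the other 7 genes had at least 234. Macrophage markers were high in each library, with a sum over 7 genes of 9580 to 33200 CPM. The sum of 5 M1 markers was 1260 to 5780 CPM in M1 and at most 30.6 CPM in M0 and M2, and that of 5 M2 markers was 4930 to 14800 CPM in M2 against at most 914 CPM in M0 and M1. Neutrophil markers summed to 26.1 to 281 CPM in M0, 40.9 to 135 in M1 and 16.1 to 73.1 in M2, and stroma markers to 15.9 to 86.6, 6.49 to 19.9 and 9.24 to 31.3 CPM. T cell markers summed to 20.9 to 46.9 CPM in M0 and to at most 13.5 CPM in M1 and M2, with Cd3e at or below 0.122 CPM throughout. B cell, mast cell or basophil and erythroid sums stayed at or below 2.29 CPM, and of the dendritic cell list Clec9a was at 198 to 422 CPM and Xcr1 at 4.62 to 10.6 CPM in M1, where Flt3, Zbtb46 and Siglech were below 1 CPM, and Zbtb46 was at 3.8 to 12.4 CPM in M2. Their part in the results was not tested. The M1 library of 254I replicate 5 held 40.8 CPM of Arg1, where the other M1 libraries held at most 0.912 CPM. In bulk RNA, fewer cells of a type and less RNA per cell cannot be told apart.

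The libraries with replicate number 5 stood apart in M0, a pattern noticed after their values were seen. In M0, Mthfd2 was at 39.2 to 50 CPM in the 3 mice with that number and at 14 to 32.1 CPM in the other 12 libraries. Mthfd1l was at 19.9 to 23.5 CPM against 9.15 to 16.7 CPM, Mat2a at 171 to 185 CPM against 109 to 168 CPM, and Ahcy at 3.15 to 3.82 CPM against 2.11 to 2.86 CPM. Mtr went the other way, at 25.6 to 26.7 CPM against 27.8 to 43.9 CPM. These 5 of the 9 genes did not overlap between both sets in M0, as was true of 8.36% of the 12905 genes tested, whereas Shmt2, Shmt1, Mthfd1 and Mat2b did. The sets were split after the values were seen, so nothing particular to these genes is read from it. Psat1, an enzyme of serine synthesis, Atf4, a transcription factor of the amino acid response, and the summed cell cycle markers were also highest there, at 52.1 to 74.4, 148 to 164 and 881 to 1070 CPM, against 19.2 to 51.6, 92.4 to 142 and 549 to 861 CPM. The cell cycle marker Mki67 (79.7 to 109 against 52.8 to 114 CPM) and Myc (23.3 to 31.8 against 9.5 to 27.3 CPM) overlapped between both sets in M0. In M1 and M2 all 9 genes overlapped between the mice with number 5 and the others. In M1, Mthfd2 was still highest in the mouse with number 5 of each of the 3 genotypes, at 94.8 to 129 CPM against 60.3 to 123 CPM. This held for no other of the 9 genes in M1 or M2. No source used here says what the number marks, and its part in these values was not tested. Differences from M0 are therefore also given without these 3 mice, an alternative chosen after seeing the data. For a gene highest in M0 in these mice, leaving them out lowers its M0 mean, which by itself raises the difference from M0. Such values and their adjusted p are no separate support.

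**Figure D2:**
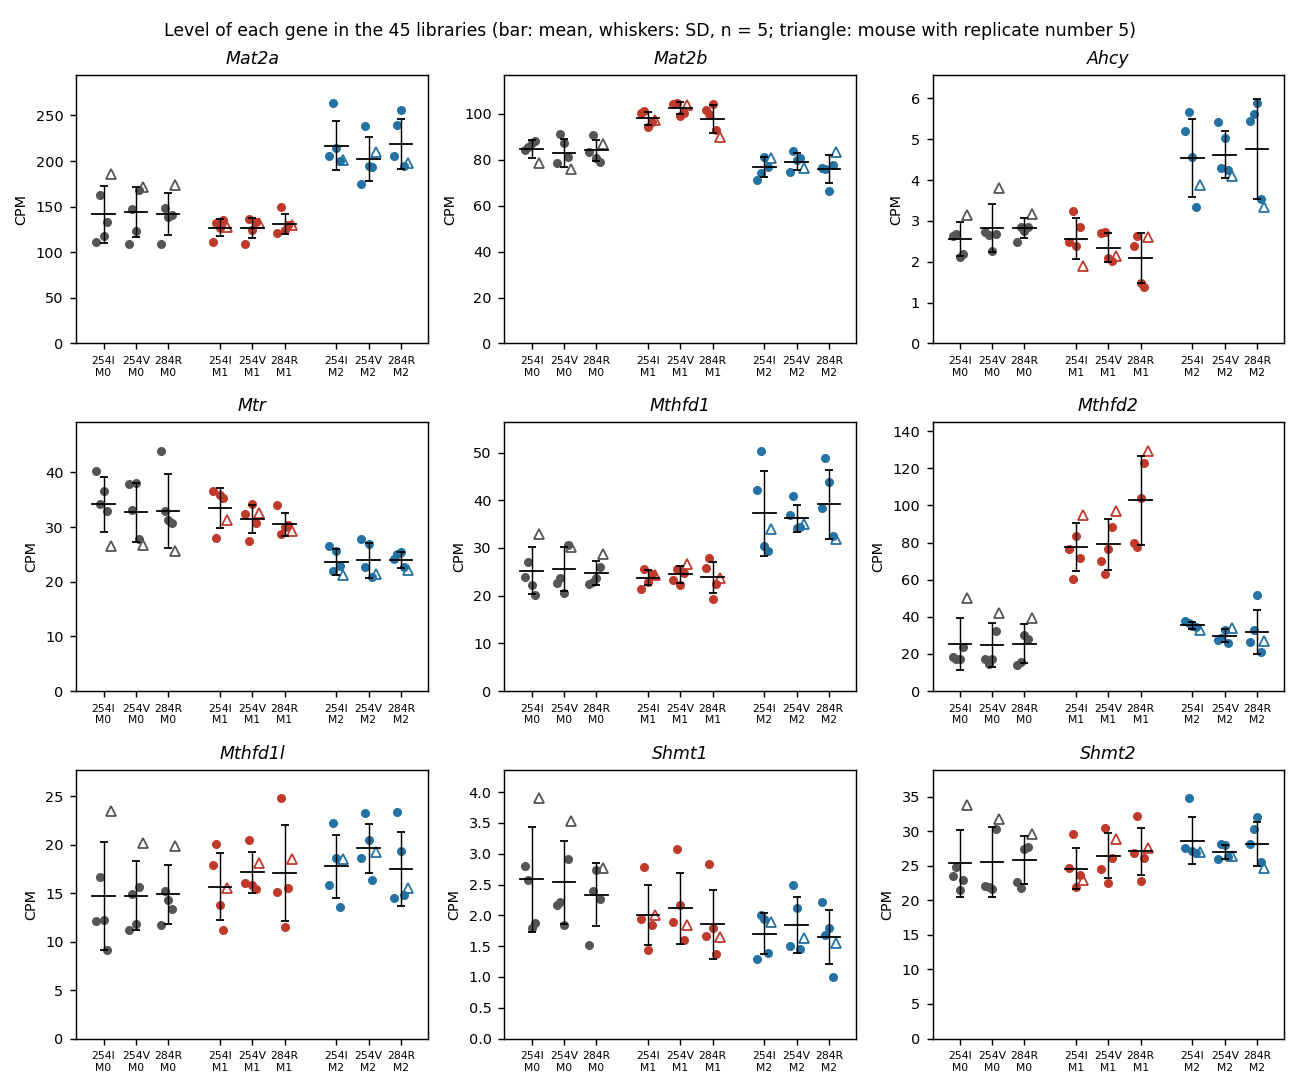
Level of the 9 genes in the 45 libraries in CPM, by genotype and polarization, with points for libraries, open triangles for the mice with replicate number 5, and bars and whiskers for the mean and SD of 5 libraries. Mthfd2 in M1 lay between 60.3 and 129 CPM, above each M0 library, and the triangles stand highest of their M0 groups for Mthfd2, Mthfd1l, Mat2a, Ahcy, Shmt1 and Shmt2.

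M1 was compared with M0 to ask how the pathway differs in cells given IFN-γ and LPS. Mthfd2, the mitochondrial dehydrogenase and cyclohydrolase, had by far the largest difference of the 9, 3.39-fold higher in M1. In M0 its level in 254I mice was 18.5, 17.4, 17.5, 23.7 and 49.98 CPM, in 254V mice 17.3, 14.75, 17.2, 32.1 and 41.8 CPM, and in 284R mice 14.02, 15.8, 30.4, 28.15 and 39.2 CPM. In M1 the same mice had 76.5, 60.3, 83.6, 71.9 and 94.8 CPM (254I), 70.2, 62.8, 76.3, 88.65 and 96.9 CPM (254V), and 79.5, 77.8, 104, 123 and 129 CPM (284R). The ranges of M0 and M1 did not overlap, which held for 1 of the 9 genes and for 28.6% of all genes tested, and 15 of 15 mice were higher in M1. The log2 fold change over the genotypes was 1.76 ± 0.161 (SE; 95% interval 1.45 to 2.08; adjusted p = 9.11e-13, edgeR's quasi-likelihood test), and 1.98 without the 3 mice with number 5. Within 254I, 254V and 284R it was 1.60, 1.67 and 2.01.

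Mat2b, the regulatory subunit, was also higher in M1 in 15 of 15 mice, by less. It ranged from 76 to 91.3 CPM in M0 with a median of 84.4 CPM, and from 89.9 to 105 CPM in M1 with a median of 100 CPM. The ranges overlapped only between 89.9 and 91.3 CPM, and the log2 fold change was 0.24 ± 0.0307 (adjusted p = 2.81e-09). Both calls held in each of 25 alternative fits.

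Shmt1, the cytosolic serine enzyme, Ahcy and Mat2a, the catalytic subunit, were called lower in M1, with small differences and overlapping ranges. Shmt1 ranged from 1.52 to 3.9 CPM in M0 (median 2.4) and from 1.38 to 3.07 CPM in M1 (median 1.84), with a log2 fold change of -0.33 ± 0.134 (adjusted p = 0.0261), and was lower in M1 in 10 of 15 mice. Ahcy ranged from 2.11 to 3.82 CPM in M0 (median 2.68) and from 1.38 to 3.23 CPM in M1 (median 2.37), with -0.24 ± 0.107 (adjusted p = 0.0424). Mat2a ranged from 109 to 185 CPM in M0 (median 140) and from 109 to 149 CPM in M1 (median 130), with -0.15 ± 0.0711 (adjusted p = 0.0483). These 3 calls lay near the threshold. With single mice left out the log2 fold changes ran from -0.39 to -0.26 for Shmt1, from -0.26 to -0.18 for Ahcy and from -0.17 to -0.11 for Mat2a. None of the 3 was called without 254I replicate 1, 254I replicate 5, 254V replicate 4, 254V replicate 5 or 284R replicate 3, and 1 was called without 284R replicate 4 or 284R replicate 5. Without the 3 mice with number 5 the log2 fold changes were -0.15 for Shmt1 (adjusted p = 0.359), -0.13 for Ahcy (0.284) and -0.06 for Mat2a (0.451).

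Mthfd1l, the mitochondrial formate ligase, Shmt2, Mtr and Mthfd1 were not called between M1 and M0. Mthfd1l was at 0.17 on the log2 scale (95% interval -0.06 to 0.40) and reached 0.33 without the 3 mice with number 5 (adjusted p = 0.0163), or 0.25 without 254I replicate 5 alone (0.0473). Shmt2 was at 0.02 (-0.11 to 0.16), Mtr at -0.06 (-0.19 to 0.06) and Mthfd1 at -0.07 (-0.22 to 0.08). For these 3 genes the intervals bound the difference between M1 and M0 to at most 0.22 on the log2 scale in either direction. In all, 2 of the 9 genes were called higher and 3 lower, where 37% of 12905 genes tested were called higher and 40.3% lower. The median log2 fold change of the 9 genes was -0.06, against -0.03 for all genes tested. Without the 3 mice with number 5, 3 were called higher and 0 lower, and the shares of all genes in that fit are not given here. These mice were set apart after their M0 values were seen, so nothing particular to these genes is read from those counts.

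M2 was compared with M0 to ask the same of cells given IL-4. Ahcy, Mat2a and Mthfd1, which act in the cytosol at making S-adenosylmethionine, clearing its product and loading formate on folate, were higher in M2 in 15 of 15 mice each. Mat2a ranged from 175 to 263 CPM in M2 with a median of 205 CPM, against a median of 140 CPM in M0. Ahcy ranged from 3.33 to 5.88 CPM in M2 with a median of 4.57 CPM, against 2.68 CPM in M0. Mthfd1 ranged from 20.2 to 33 CPM in M0 (median 23.7) and from 29.4 to 50.4 CPM in M2 (median 34.9). The range of each of the 3 genes in M2 overlapped the top of its M0 range, where the mice with number 5 lay for Mat2a and Ahcy.

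The log2 fold change in M2 was 0.76 ± 0.104 for Ahcy (1.69-fold; adjusted p = 2.28e-08), 0.57 ± 0.0711 for Mat2a (1.49-fold; 2.31e-09) and 0.57 ± 0.0766 for Mthfd1 (1.49-fold; 1.3e-08). Each of the 3 was called in 25 of 25 alternative fits. Without the 3 mice with number 5 the values were 0.92, 0.69 and 0.70. Within 254I, 254V and 284R, Ahcy was at 0.82, 0.70 and 0.75, and Mat2a at 0.61, 0.49 and 0.62. The windows that Ahcy shares with other genes, with the unknown counting of such reads, limit its differences in every comparison as well as its level.

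Mtr, the enzyme that joins both cycles, was lower in M2 in 15 of 15 mice. It ranged from 25.6 to 43.9 CPM in M0 (median 33) and from 20.9 to 27.8 CPM in M2 (median 22.8). The log2 fold change was -0.48 ± 0.0655 (adjusted p = 2.12e-08), which is 1.39-fold lower. Shmt1 was at 1 to 2.49 CPM in M2 (median 1.68) with a log2 fold change of -0.53 ± 0.135 (adjusted p = 0.000602), and 11 of 15 mice were lower. Mat2b was at 66.6 to 84 CPM in M2 (median 76.9), a small difference of -0.12 ± 0.0308 (adjusted p = 0.00071), with 13 of 15 mice lower. The subunits Mat2a and Mat2b thus differed from M0 in opposite directions in M2.

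The mitochondrial genes were Mthfd1l, Mthfd2 and Shmt2. Mthfd1l ranged from 13.5 to 23.4 CPM in M2 (median 18.6) against a median of 14.3 CPM in M0, and its log2 fold change was 0.30 ± 0.116 (adjusted p = 0.0176), or 0.49 without the 3 mice with number 5. Mthfd2 ranged from 21.3 to 51.6 CPM in M2 with a median of 32.8 CPM, against 18.5 CPM in M0, and was higher in M2 in 10 of 15 mice. Its log2 fold change was 0.36 ± 0.159 (adjusted p = 0.0409). The call for Mthfd2 held in 13 of 25 alternative fits. Of the 15 fits that left out a mouse it held only without 254I replicate 5, 254V replicate 4 or 5, or 284R replicate 4 or 5, and the adjusted p reached 0.0936 without 254V replicate 3. Without the 3 mice with number 5 the value was 0.67 (adjusted p = 9.33e-05). Shmt2 was at 0.13 (95% interval -0.01 to 0.26; adjusted p = 0.0934), and at 0.25 without those mice (adjusted p = 0.00165). It was also called without 254V replicate 4 and without any 1 of the 3 mice with number 5. Mthfd2 and Shmt2 were highest of their M0 groups in those 3 mice. Leaving the mice out thus lowers the M0 means by construction and adds no support. In all, 5 of the 9 genes were called higher and 3 lower in M2, where 36.8% of 12905 genes tested were called higher and 39.6% lower. The median log2 fold change of the 9 genes was 0.30, against -0.03 for all genes tested. None of the 9 had M2 and M0 libraries without overlap, where 23.4% of all genes tested did. Both comparisons with M0 share the same M0 libraries.

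M1 and M2 were also compared directly, without the M0 libraries. Mthfd2 was 2.65-fold higher in M1 (log2 1.41 ± 0.16; adjusted p = 2.33e-10), its ranges did not overlap, and 15 of 15 mice were higher in M1. Mtr was higher in M1 by 0.42 ± 0.0656 (adjusted p = 3.26e-07) and Mat2b by 0.36 ± 0.0308 (adjusted p = 5.89e-14), each in 15 of 15 mice. Ahcy was 1.99-fold lower in M1 than in M2 (-0.995 ± 0.106; adjusted p = 3.37e-11), Mat2a 1.66-fold lower (-0.73 ± 0.0713; 3.68e-12) and Mthfd1 1.56-fold lower (-0.64 ± 0.0769; 7.14e-10). For these 3 genes 15 of 15 mice were lower in M1. The ranges of M1 and M2 did not overlap for 5 of the 9 genes, these 3, Mthfd2 and Mat2b, and for 35.7% of all genes tested. Mthfd1l (-0.14; 95% interval -0.36 to 0.09), Shmt1 (0.20; -0.07 to 0.47) and Shmt2 (-0.10; -0.24 to 0.03) were not called. In all, 3 were called higher and 3 lower in M1, where 39% of genes tested were called higher and 40.1% lower. These 6 calls held in 25 of 25 alternative fits.

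**Figure D3:**
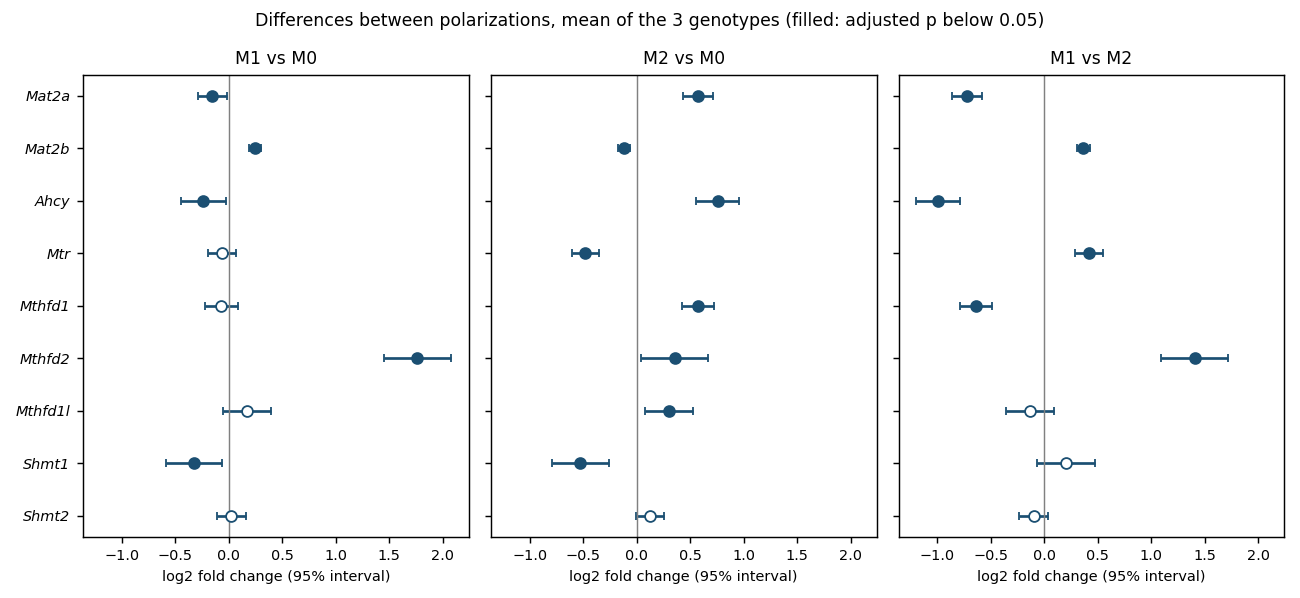
Log2 fold change of the 9 genes between polarizations, as the mean of the 3 genotypes, with 95% intervals, and filled points where the adjusted p was below 0.05. Mthfd2 stands at 1.76 in M1 against M0, and Ahcy, Mat2a and Mthfd1 are higher in M2 and lower in M1 against M2.

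The balance within pairs of related enzymes was followed as ratios of RPKM in each library. The ratio of Mat2a to Mat2b was 1.9 ± 0.384 in M0, 1.44 ± 0.137 in M1 and 3.09 ± 0.491 in M2 (SD, n = 15). It lay between 1.16 and 1.66 in M1 and between 2.61 and 4.28 in M2, without overlap. The value of the ratio depends on the length used, and per longest transcript it was 1.24 ± 0.25, 0.94 ± 0.0891 and 2.01 ± 0.32, so that Mat2a was below Mat2b in M1. The same factor applies to each library, so the polarizations compare alike on either length. The ratio of Shmt2 to Shmt1 was 13.3 ± 2.18 in M0, 17 ± 3.41 in M1 and 21 ± 4.48 in M2, and its ranges overlapped, at 10.5 to 18.6, 12.4 to 23.7 and 14.1 to 31.8. The mitochondrial form was the more abundant of both in each library. Shmt1 rests on few reads, so the second ratio carries more counting error than the first. The second ratio also depends on how reads in the overlap of Shmt1 with Smcr8 were counted, which is not known here.

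The spread among libraries also differed by gene. Mat2b was the most even, with a coefficient of variation of 4.47% in M1 and 6% in M2. Mthfd2 in M0 was the least even at 44.9%, against 23.4% in M1 and 21.8% in M2. Mat2a had 17.8% in M0 and 7.7% in M1 by the same measure. Mtr had 16.2%, 9.17% and 9.47% in M0, M1 and M2. The M0 values include the 3 mice with number 5.

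Genotype was compared to ask whether the Famin variant moved these genes. None of the 9 was called in any of the 13 genotype comparisons and interactions, and 0 of 9 had an unadjusted p below 0.05 in any of them by edgeR without a block, while with the replicate number as a block Mthfd2, Ahcy and Mtr had one for 284R against 254I in M1, and Ahcy in the M1 interaction of 284R. With DESeq2 and with limma-voom the count was 0 in each as well. How many of all genes had an unadjusted p below 0.05 with the block is not given here. Nothing particular to Mthfd2, Ahcy and Mtr is therefore read from theirs. For 284R against 254I as the mean of the polarizations, log2 fold changes ran from -0.10 for Shmt1 (95% interval -0.37 to 0.17) to 0.08 for Mthfd2 (-0.23 to 0.39). For 254V against 254I they ran from -0.09 for Mthfd2 (-0.40 to 0.22) to 0.09 for Mthfd1l (-0.14 to 0.32), and for 284R against 254V from -0.16 for Shmt1 (-0.43 to 0.10) to 0.17 for Mthfd2 (-0.14 to 0.48). Over all genes tested, 0.0155% were called for 284R against 254I, 0.0155% for 254V against 254I and 0% for 284R against 254V. Almost no gene was called in these comparisons. The replicate number within each polarization was also fitted as a block, an alternative chosen after seeing the data. For 284R against 254I, 61 genes were then called higher and 17 lower, and for 254V against 254I 0. For 284R against 254V, 40 were called higher and 35 lower. None of these genes was among the 9. For means of the polarizations, the fits with and without this block treat the cultures of a mouse as separate. Deviations from group means correlated over 0.1 between cultures of a mouse in 38 of 45 pairs. The intervals and calls given here for these means therefore do not rest on independent libraries.

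Mthfd2 in M1 had the largest genotype difference among the 9, and it did not pass the test. The M1 means were 77.4 ± 12.9 CPM in 254I, 79 ± 13.8 CPM in 254V and 103 ± 23.8 CPM in 284R (SD, n = 5). Of the 5 libraries of 284R, 3 lay above the highest 254I library and 2 lay among them. Mice sharing a replicate number deviated together in M1, and by number 284R was higher than 254I in 5 of 5. The log2 difference of 284R from 254I in M1 was 0.41 (95% interval -0.12 to 0.94; adjusted p = 0.891 by edgeR). With the replicate number within each polarization as a block it was 0.39 (0.11 to 0.67), and the adjusted p of 0.159 did not pass either. Ahcy in M1 had the largest difference in the other direction, with 2.57 ± 0.505 CPM in 254I and 2.1 ± 0.612 CPM in 284R, at -0.32 (95% interval -0.69 to 0.06; adjusted p = 0.86), or -0.34 (-0.63 to -0.06; 0.228) with that block. By number, 284R was higher in 1 of 5. With that block Mtr stood at -0.13 (-0.24 to -0.02; adjusted p = 0.265). In M1, 0.263% of genes tested were called for 284R against 254I, and 0% for 254V against 254I. For 284R these were 27 genes higher and 7 lower, and with the number block 201 were higher and 142 lower.

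In M0 the 9 genes differed by -0.15 (Shmt1) to 0.14 (Ahcy) for 284R against 254I and by -0.06 (Mtr) to 0.16 (Ahcy) for 254V against 254I, with 0% of genes called in each comparison. In M2 they differed by -0.16 (Mthfd2) to 0.07 (Mthfd1) for 284R, with 0.00775% of genes called, and by -0.25 (Mthfd2) to 0.14 (Mthfd1l) for 254V, with 0% called. Each genotype overlapped 254I in each of the 9 genes and 3 polarizations. The share of all genes that overlapped in this way was not counted, so nothing particular to these genes is read from it. The means of Mat2a in M2 were 217 ± 26.5, 202 ± 23.8 and 219 ± 27.4 CPM in 254I, 254V and 284R, an example of how little they differed beside the spread. The intervals are wide for Mthfd2, Shmt1 and Ahcy and narrow for Mat2b, for which that of 284R against 254I ran from -0.07 to 0.05 over the polarizations.

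The interaction tests asked whether the response to polarization differed by genotype. For 284R the M1 response of the 9 genes differed from that of 254I by -0.46 (Ahcy; 95% interval -0.98 to 0.06) to 0.41 (Mthfd2; -0.35 to 1.16), and the M2 response by -0.16 (Mthfd2) to 0.11 (Shmt1). For 254V the differences were -0.29 (Ahcy) to 0.13 (Mthfd1l) in M1 and -0.21 (Mthfd2) to 0.14 (Shmt1) in M2. None of these 36 values was called, and 0% of all genes tested were called in each of the 4 interactions. In the 9 genotype comparisons and interactions with no call, between 70 and 607 of 12905 genes had an unadjusted p below 0.05 by edgeR. Without any difference, a share of about 0.05 of the genes would have one, and each of these counts lay below that share. Mice sharing a replicate number deviated together, which the fit without a block leaves in the spread within groups. The low counts are therefore not read as an absence of genotype differences. With 5 mice a group, the interval for Mthfd2 allows an M1 response up to 1.16 larger on the log2 scale in 284R than in 254I. With the number block the interaction was -0.50 (95% interval -0.90 to -0.11; adjusted p = 0.488) for Ahcy and 0.35 (-0.07 to 0.77; 0.726) for Mthfd2, and 0 of the 9 genes were called in any of the 13 results. Over all genes, 4 were called higher in that interaction with the block and 0 in the other 3 interactions.

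**Figure D4:**
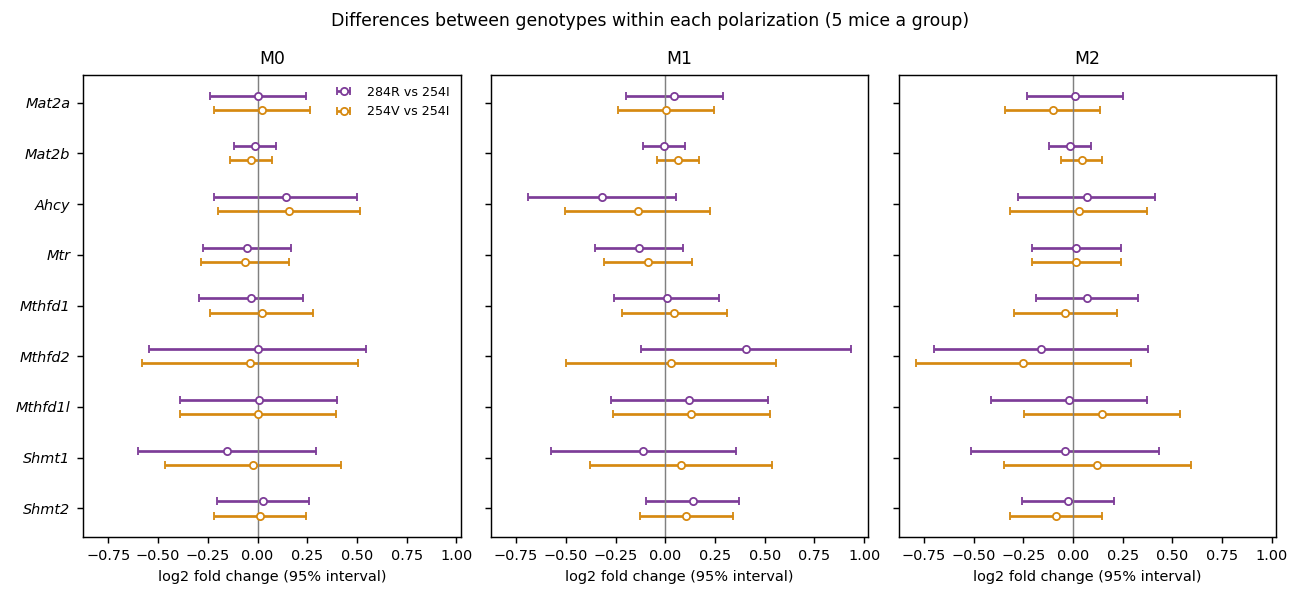
Log2 fold change of the 9 genes for 284R against 254I and 254V against 254I within M0, M1 and M2, with 95% intervals from 5 mice a group. All 54 intervals, from the fit without a block, include 0, and the largest values are those of Mthfd2 (0.41) and Ahcy (-0.32) for 284R in M1.

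The steps around the 9 enzymes were followed in a list of 51 further genes, of which 44 passed the filter. In M1, 15 were called higher and 18 lower, which is close to the 37% and 40.3% of all genes tested. In M2, 20 were called higher and 14 lower, where 36.8% and 39.6% of all genes were, and against M2, M1 had 13 higher and 26 lower, where 39% and 40.1% of all genes were. For genotype, 0 of 44 were called in each comparison, and 0 to 4 had an unadjusted p below 0.05 by edgeR. The median log2 fold change of the list was -0.14 in M1 and 0.12 in M2, against -0.03 for all genes tested in each. The counts by step that follow are small and are to be read beside the same shares of all genes.

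Serine synthesis feeds the SHMT enzymes, and Psat1 is its phosphoserine aminotransferase. Psat1 ranged from 19.2 to 74.4 CPM in M0 (median 40.6), from 122 to 227 CPM in M1 (median 154) and from 88.4 to 172 CPM in M2 (median 123). The gene overlaps Gm3329 on the other strand. M0 overlapped neither M1 nor M2, and the log2 fold changes were 1.92 ± 0.131 in M1 (adjusted p = 1.53e-16) and 1.58 ± 0.13 in M2 (7.1e-14). Phgdh, the first enzyme of the same path, was at 1.28 ± 0.691 CPM in M0 and was called in neither. In this group of 4 genes 2 were called higher and 0 lower in each comparison, the other ones being Psph in M1 and Sfxn1, a mitochondrial serine carrier, in M2.

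Among the other folate enzymes, 3 of 12 tested were higher and 6 lower in M1, and likewise 3 and 6 in M2. Atic, which uses formyl-folate in the last steps of purine synthesis, was at 61 ± 7.68 CPM in M0, 50.4 ± 4.19 CPM in M1 and 169 ± 10.3 CPM in M2, with log2 fold changes of -0.28 (adjusted p = 9.89e-06) and 1.47 ± 0.0528 (1.83e-25). Mthfd2l, the paralogue of Mthfd2, was lower in M1 by 1.36 ± 0.104 on the log2 scale (adjusted p = 2.93e-15), at 1.7 CPM against 4.35 CPM, opposite to Mthfd2. In M2 its log2 fold change was -0.34 (adjusted p = 0.00241). Aldh1l2 was at 0.473, 0.918 and 0.185 CPM in M0, M1 and M2, called higher in M1 and lower in M2, on 2 to 40 reads a library.

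All 5 folate transport genes were called lower in M1, and 3 were called higher and 2 lower in M2. Folr2, a folate receptor of macrophages, was at 400 ± 94.1 CPM in M0, 117 ± 19 CPM in M1 and 176 ± 46.2 CPM in M2, with log2 fold changes of -1.78 ± 0.12 and -1.19 ± 0.118 (adjusted p = 1.03e-16 and 1.14e-11). Folr1 was at 1.1, 0.235 and 1.59 CPM in M0, M1 and M2 (log2 -2.28 and 0.51), with 3 to 12 reads a library in M1. Of the glycine cleavage genes, 3 of 4 were lower and 1 higher in M1, and 1 lower and 1 higher in M2. Gldc was called lower in M1 on 3 to 25 reads a library in M0 and 0 to 3 in M1.

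In the rest of the methionine cycle, Mtrr, the reductase that keeps MTR active, was lower in M1 by 0.70 on the log2 scale (adjusted p = 4.43e-12), and 3 of 7 genes were higher. In M2, 4 of 7 were higher, among them the AHCY-like genes Ahcyl1 (0.88; adjusted p = 4.47e-22) and Ahcyl2 (0.67; 4.37e-15), and 1 was lower. Mat1a, Bhmt and Bhmt2, the liver forms, had 0 reads in each library. Of 5 methylthioadenosine salvage genes, 3 were higher and 0 lower in M1, and 4 higher and 1 lower in M2. Of 6 small-molecule methyltransferases tested, 2 were higher and 3 lower in M1 and 3 were higher and 3 lower in M2, with Hnmt at 29.6, 8.94 and 19.9 CPM in M0, M1 and M2. Of the transsulfuration genes only Cth passed the filter, with 0 to 6 reads a library in M0 and 2 to 15 in M1, and it was called higher in M1.

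**Figure D5:**
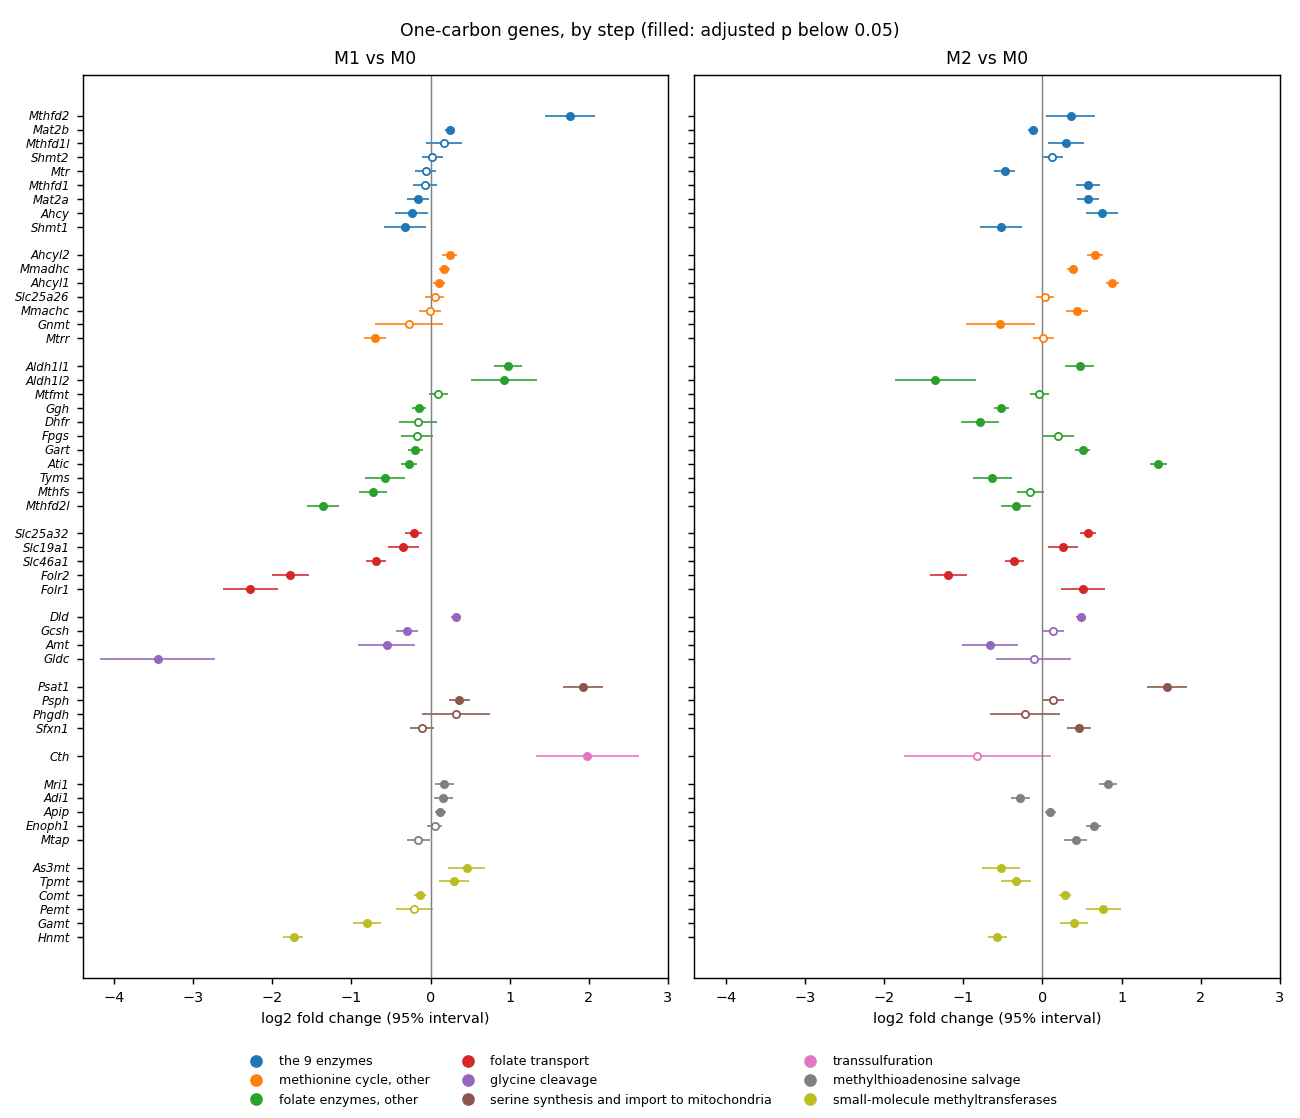
Log2 fold change with 95% interval for the 9 enzymes and the further genes reported, in M1 and M2 against M0, grouped by step and ordered within a step by the M1 value, with filled points where the adjusted p was below 0.05. Psat1 stands at 1.92 and 1.58, and the 5 transport genes are left of 0 in M1.

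Of the regulators listed, Atf4 was at 118 ± 22.4 CPM in M0, 169 ± 31.3 CPM in M1 and 157 ± 15.9 CPM in M2, called higher in both (0.51 and 0.41 on the log2 scale; adjusted p = 4.49e-07 and 1.87e-05). Myc, a known activator of nucleotide and folate genes, was at 17.7 ± 6.75, 4.89 ± 1.3 and 67.6 ± 5 CPM, and no range overlapped another. Of 4 regulators tested, 1 was called higher and 3 lower in M1, and 3 higher and 1 lower in M2. Summed cell cycle markers had medians of 663, 474 and 551 CPM, and 9 of 10 were called lower in M1 and 8 of 10 in M2, with 1 higher. Their part in the differences of the 9 enzymes was not tested. Of all genes tested, 37% were called higher and 40.3% lower in M1, and 36.8% and 39.6% in M2.

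The genes nearest in pattern to each of the 9 were found by the root mean square difference of centred log2 CPM over the 9 group means. Sco1 (0.0813) and Dram1 (0.121) were nearest to Mthfd2, whose own root mean square was 0.802. Nearest to Mat2a were Mbd3 (0.0245) and Pa2g4 (0.0257), to Ahcy Rnf166 (0.0503) and Bola2 (0.0642), and to Mthfd1 Eif3l (0.0231) and Rpl29 (0.0363). Nearest to Mat2b were Klhl20 (0.0239) and Chp1 (0.027), and to Mtr Ttc32 (0.0287) and Sypl (0.0325). Nearest to Mthfd1l was Iscu (0.0502). Those for Shmt1 were Ctdsp1 (0.0285) and Cdca8 (0.0442), and those for Shmt2 Ifngr2 (0.0239) and Cbll1 (0.0251), where Shmt2 itself varied by only 0.0711.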

How the data were processed

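RNA sequencing of 45 macrophage libraries was analysed from the deposited tables. The authors deposited raw counts of reads for 29307 Ensembl genes, and CPM for 11900 genes, which the authors scaled to each library's total over those genes. Whole reads recovered from the CPM (within 0.01) were 100.0% of values and equalled the counts. The labels and the study's methods name TruSeq Stranded mRNA libraries of 1 read of 50 bases, FastQC, Trim Galore, HISAT2 and mm10, whereas the series description names Cutadapt and STAR. The counting tool, its annotation and its use of strand are not given in the sources used here. Coordinates, exon lengths and overlaps were taken from GENCODE vM21 on GRCm38, which matched 29091 identifiers, and promoter windows from RefSeq.

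The counts were fitted with edgeR 4.0.16 (R 4.3.3). Genes passing filterByExpr over the 9 groups (12905) were scaled by TMM (factors 0.939 to 1.1) and fitted with glmQLFit (robust) to the 9 groups without a block. The study's methods name limma with voom for differential expression and do not say whether a block or covariate was used. The same methods name a batch correction with sva before gene set enrichment. They do not say what the batches were, so no batch term was fitted. Genes were called at a Benjamini-Hochberg adjusted p below 0.05 over all genes tested. Each polarization contrast averaged the 3 genotypes. Genotype contrasts averaged the 3 polarizations, or were taken within each or as interactions. The fits were tested on simulated data. Alternatives were DESeq2 1.42.0, limma-voom (limma 3.58.1), other scaling and filters, blocks, sums per mouse, recovered reads, transcript lengths and leaving out each mouse. Deviations from group means (8625 genes) correlated over 0.1 for mice sharing a replicate number in 15 of 15 pairs in M0 and in M1 and 13 of 15 in M2, and for the cultures of a mouse, paired by the titles, in 38 of 45.

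All 9 enzymes are named in each comparison, as are further pathway genes called with a log2 change of at least 1 (10 genes) and the 2 genes nearest in pattern, except that some of these items are not reported here; other genes serve as examples chosen after seeing values. The genes and lists were chosen with earlier results of these data known. Depth limits precision for Ahcy and Shmt1. No values of the authors' own comparisons were used.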

Additional observations from a re-analysis of the deposited data

Results flagged for a closer look

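In 81 groups of 5 libraries, 1 for each gene and group, 5 had a library far from the others of its group (Dixon's criterion), and chance gives about 1 in 20. Both M0 cases were the 254I mouse with replicate number 5, with Mthfd2 at 50 CPM, where the next library was at 23.7 CPM and the lowest at 17.4 CPM, and Shmt2 at 33.8 CPM, next to 24.8 CPM. In M2 the 254I mouse with replicate number 2 held 263 CPM of Mat2a, next to 215 CPM, and 34.7 CPM of Shmt2, next to 27.5 CPM. In M1 the 284R mouse with replicate number 2 held 2.83 CPM of Shmt1, next to 1.79 CPM.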

How the results depend on the processing

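Every call for the 9 genes in M1 against M2, the 3 lower calls in M2 and the genotype counts of 0 kept their side of the threshold in each alternative. The count of genes lower in M1, 3 as reported, was 1 without the low-count filter and 0 without the 3 mice with replicate number 5, and ranged from 0 to 3 when single mice were left out. With the replicate block, mouse fitted as a term, 3 were lower and 2 higher in M1, and 3 lower and 5 higher in M2, as without it, and the block changed no call of the 9 genes in these comparisons. With the replicate number within each polarization as a block, the genotype counts of the 9 were 0 as well, but over all genes the calls for 284R against 254I in M1 went from 27 higher and 7 lower to 201 and 142, and as the mean of the polarizations from 2 and 0 to 61 and 17. For that mean, both fits treat the 3 cultures of a mouse as separate. Per length of the longest annotated transcript, M0 levels were 42.1 RPKM for Mat2a, 34.1 for Mat2b, 12.1 for Mthfd2, 11.2 for Shmt2, 7.77 for Mthfd1 and 0.87 for Shmt1, so Mthfd2 then stood above Shmt2. Values that changed sign had passed no test in either fit. With single mice left out, log2 differences of 284R from 254I ran as follows: Mat2a -0.0266 to 0.0691, Mat2b -0.0216 to 0.000557, Ahcy -0.0926 to 0.0369, Mthfd1 -0.0327 to 0.0779, Mthfd2 -0.0242 to 0.24, Mthfd1l -0.0722 to 0.12. Those of 254V from 254I ran as follows: Mat2a -0.0714 to 0.0345, Ahcy -0.0193 to 0.085, Mtr -0.0906 to 0.00517, Mthfd1 -0.0354 to 0.0713, Mthfd2 -0.23 to 0.0717, Mthfd1l -0.0119 to 0.18, Shmt1 -0.0216 to 0.14, Shmt2 -0.027 to 0.0606. For 284R against 254I, Ahcy was at 0.00709 with counts summed per mouse, and without the 3 mice with number 5 Ahcy was at -0.0201 for 254V. In M1 against M0, Mthfd1 was at 0.00486 without those mice, and Shmt2 ran from -0.00555 to 0.0768 with single mice left out. Depth limits Ahcy and Shmt1 most. Genotype intervals of Mthfd2 are wide with 5 mice a group and no block, and narrower with the number block. For 284R against 254I in M0 they ran from -0.54 to 0.54 without it and from -0.26 to 0.35 with it.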
